A study of Homo sapiens with 9 samples.

Results

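A set of 34 genes of glycolysis, lactate handling, pyruvate entry and the pentose phosphate pathway was followed in A375P, an established human melanoma line that carries a mutant RAF kinase. Cells were treated for 2, 6 or 24 h with 1 µM PD184352, which blocks the MEK kinases, with 0.4 µM PLX4720, which blocks the mutant RAF kinase, or with the solvent DMSO. All groups were grown in the same serum-containing medium. Every treatment had 1 deposited array column per time, 9 in all. The series design mentions triplicates, and the sources used here leave unsaid if a column averages them. The list of genes was given by name and was not ranked from measured values, but it was chosen with earlier results of these data known. Of the 34 genes, 29 had an array row (transcript cluster) that named 1 gene, out of 17047 genes with such a row. SLC2A3, SLC16A1, SLC16A3, PDK2 and TALDO1 had none, and PGAM1 was left out with the dimmest 25% of genes, so that 28 of the 34 were tested among 12785 genes.

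Glycolysis splits glucose into pyruvate. Hexokinases trap the sugar that transporters let in, phosphofructokinase commits it to the pathway, and lactate dehydrogenase turns pyruvate into lactate. The bifunctional PFKFB enzymes make and remove the sugar bisphosphate that activates phosphofructokinase. Pyruvate dehydrogenase instead sends pyruvate to the mitochondria, and the PDK kinases hold it back. The pentose phosphate pathway branches off to make NADPH and the ribose phosphate used in nucleotides. In melanoma, RAF and MEK signalling is known to favour glucose uptake and glycolysis, and hypoxia-inducible factor and MYC are known activators of many of these genes.

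Changes are differences of log2(intensity + 1), given as the mean of the PD184352 and the PLX4720 array minus the DMSO array of the same time, with the moderated standard error (SE). A gene was called at a limma adjusted p below 0.05. The spread behind these p-values is that between 2 different compounds at the same time. It is not the spread between cultures, and each DMSO array stands alone. Some 24 h changes are also given with the 2 h and 6 h DMSO arrays as control in place of the 24 h one. That comparison mixes inhibitor with time, so it does not give the inhibitor effect alone. Arrays of whole cultures cannot tell fewer cells that carry a transcript from less of it per cell. Median intensities lay between 98.96 and 102.35, and the 10 ERK output genes that served as a check of drug action were all lower at 6 h and at 24 h, with a median change of −1.59 and −2.21. That list was drawn up with earlier results of these data known, so the check is weak. Of 10 melanocyte lineage markers, 6 had a row and 5 were tested. Of those 5, SOX10, PMEL, MLANA and S100B rose at 24 h. MITF did not pass, at 0.22 (limma adjusted p = 0.146). The summed intensity of the 6 with a row was 3850 to 5668 on the inhibitor arrays and 3980 to 4311 on the DMSO arrays. At 24 h it was 5668 with PD184352 and 5352 with PLX4720, against 3980 with DMSO. The summed intensity of 5 fibroblast markers was 484 to 512 on the inhibitor arrays and 450 to 480 on the DMSO arrays (lowest to highest). No tested marker of fibroblasts, leukocytes, epithelium or endothelium was called at 24 h, and the endothelial gene KDR was lower at 6 h. DCN, PTPRC, CD3E, LYZ, EPCAM, CDH1 and PECAM1 were among the dimmest 25% of genes. The other markers of these lists with a row lay at percentiles 25 (LUM) to 58.7 (KRT8) of mean level. KRT14 and KRT18 lay at 58, VWF at 58.3 and COL1A1 at 52.5, so not all rows picked for these markers were dim. Whether each of these rows reports the named gene or a copy of it was not checked, so their levels do not show that the genes were expressed. The part of these marker shifts in the results was not tested.

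The 3 members that fell at 6 h were HK2, PFKFB3 and PFKFB4, and their promoters are shown because these genes changed together and earliest. Each window is a RefSeq promoter (GRCh38.p14) from 250 bases before to 50 after a gene start, written 5′ to 3′ on the gene's strand. Capitals mark the hypoxia response element cores ACGTG and GCGTG on either strand. The palindrome CACGTG, an E-box that MYC and its relatives bind, holds ACGTG once on each strand.
HK2, chr2:74834920-74835219, plus strand: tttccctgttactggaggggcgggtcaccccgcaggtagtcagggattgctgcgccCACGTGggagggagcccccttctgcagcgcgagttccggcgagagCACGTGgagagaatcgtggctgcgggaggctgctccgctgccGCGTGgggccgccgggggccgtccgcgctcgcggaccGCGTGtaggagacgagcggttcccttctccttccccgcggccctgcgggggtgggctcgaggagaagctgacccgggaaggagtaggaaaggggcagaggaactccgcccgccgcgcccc
PFKFB3, chr10:6202682-6202981, plus strand: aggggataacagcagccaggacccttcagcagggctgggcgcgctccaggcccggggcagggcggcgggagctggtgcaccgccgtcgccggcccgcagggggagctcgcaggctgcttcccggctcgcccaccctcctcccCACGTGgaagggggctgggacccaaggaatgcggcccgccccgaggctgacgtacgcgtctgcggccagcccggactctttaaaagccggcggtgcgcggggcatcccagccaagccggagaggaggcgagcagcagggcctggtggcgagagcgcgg
PFKFB4, chr3:48556754-48557053, minus strand: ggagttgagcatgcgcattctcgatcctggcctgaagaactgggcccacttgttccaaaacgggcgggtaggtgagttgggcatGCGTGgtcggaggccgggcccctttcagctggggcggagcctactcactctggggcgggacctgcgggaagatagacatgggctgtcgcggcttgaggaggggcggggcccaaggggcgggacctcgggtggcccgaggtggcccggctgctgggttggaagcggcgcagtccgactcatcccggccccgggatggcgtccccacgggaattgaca
The HK2 window held 2 CACGTG, which account for its 4 ACGTG matches, and 2 GCGTG. The PFKFB3 window held 1 CACGTG, and the PFKFB4 window held 1 GCGTG and no ACGTG. HK2 and PFKFB3 each have 2 listed starts, and the window with more ACGTG matches is printed. Among 35114 promoter windows of all genes, 21.4% held ACGTG, 36.5% GCGTG and 7.26% CACGTG. Of the 62 windows of the 31 members in the table, 37.1% held ACGTG, 41.9% GCGTG and 12.9% CACGTG, and windows of 1 gene can overlap. A match describes these letters only.

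Of the 3 tested genes of glucose entry and its first step, 2 fell at 24 h (66.7%) and 1 did not pass. Of all genes 19.2% were lower at 24 h, and with 3 genes the share is coarse. HK2, the inducible hexokinase of growing and cancer cells, had an intensity of 766, 552 and 462 with PD184352 and 754, 577 and 521 with PLX4720, against 823, 787 and 740.1 with DMSO (each at 2, 6 and 24 h). At 6 h and 24 h both inhibitor arrays lay below all 3 DMSO arrays. HK2 fell by 0.48 on the log2 scale at 6 h (SE 0.10, adjusted p = 0.0248) and by 0.59 at 24 h (SE 0.10, adjusted p = 0.00103). HK1, the constitutive hexokinase, was at −0.21 at 24 h (SE 0.10, adjusted p = 0.143) and did not pass, but with the 2 h and 6 h DMSO arrays as control in place of the 24 h one it was at −0.27 (adjusted p = 0.0194). SLC2A1, which encodes the glucose transporter GLUT1, had an intensity of 1756, 1676 and 904 with PD184352 and 1902, 1711 and 976 with PLX4720, against 1990.2, 2213 and 1242 with DMSO. Both inhibitor arrays were below DMSO at each time, yet the DMSO level itself was lower at 24 h than at 6 h. SLC2A1 was at −0.39 at 6 h (SE 0.09, adjusted p = 0.0555), which did not pass, and fell by 0.40 at 24 h (SE 0.09, adjusted p = 0.00780). With those other 2 DMSO arrays as control, the SLC2A1 change at 24 h was −1.16 (adjusted p = 1.56e-06).

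The neuronal-type glucose transporter gene SLC2A3 had no row of its own. A row that names both SLC2A3 and its close paralog SLC2A14 read, as log2 levels, 5.79, 5.48 and 5.46 with PD184352 and 5.84, 5.43 and 5.69 with PLX4720, against 6.12, 6.64 and 6.48 with DMSO. Its change was −1.18 at 6 h and −0.91 at 24 h, without a test, and which of the paralogs it reports cannot be told. The row is dim: its mean of 5.88 lies under 6.21, the mean at or below which genes were left out of the tests. A second row that names the same pair, with a mean of 6.19, was at −0.25 at 6 h and −0.14 at 24 h.

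Within the PFKFB family, 2 members fell and 1 rose at 24 h (66.7% and 33.3%, where 19.2% of all genes were lower and 12.5% higher). PFKFB3, the isoform with the strongest kinase activity, had an intensity of 553, 497 and 449.6 with PD184352 and 566, 445 and 468 with PLX4720, against 770.1, 785 and 782 with DMSO. All 6 inhibitor arrays lay below all 3 DMSO arrays, which differed little among themselves. PFKFB3 was at −0.46 at 2 h (SE 0.09, adjusted p = 0.177), and fell by 0.74 at 6 h (SE 0.09, adjusted p = 0.00233) and by 0.77 at 24 h (SE 0.09, adjusted p = 0.000175). PFKFB4, known as a hypoxia-inducible isoform, had an intensity of 528, 443 and 578 with PD184352 and 564, 451 and 565 with PLX4720, against 665, 659.9 and 878 with DMSO. It fell by 0.56 at 6 h (SE 0.09, adjusted p = 0.00639) and by 0.62 at 24 h (SE 0.09, adjusted p = 0.000404). Its DMSO level was highest at 24 h, and with the other 2 DMSO arrays as control the 24 h change was −0.21 (adjusted p = 0.0323).

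PFKFB2, the isoform known from heart and a substrate of AKT, went the other way. Its intensity was 199, 276 and 599 with PD184352 and 234, 279.8 and 505 with PLX4720, against 222, 266 and 276 with DMSO. The inhibitor arrays were close to DMSO at 2 h and 6 h, and both were far above every DMSO array at 24 h. PFKFB2 rose by 1.00 at 24 h (SE 0.12, adjusted p = 0.000192), after −0.04 at 2 h (adjusted p = 0.955) and 0.07 at 6 h (adjusted p = 0.868). It was the 1 member of 28 whose change differed between times by limma's F-test (adjusted p = 0.00500), where 14.9% of all genes tested were called. That count moved with the control used. When 1 DMSO array was left out, the other 2 stood in for it. Such a control mixes inhibitor with time and is shared between times, so these counts are not like for like. The count was then 10 without the 2 h array (29.3% of all genes), 10 without the 6 h one (23.8%) and 13 without the 24 h one (36.6%). It was 3 without the PD184352 24 h array (15.5%) and 4 without the PLX4720 24 h array (18.7%).

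**Figure D1:**
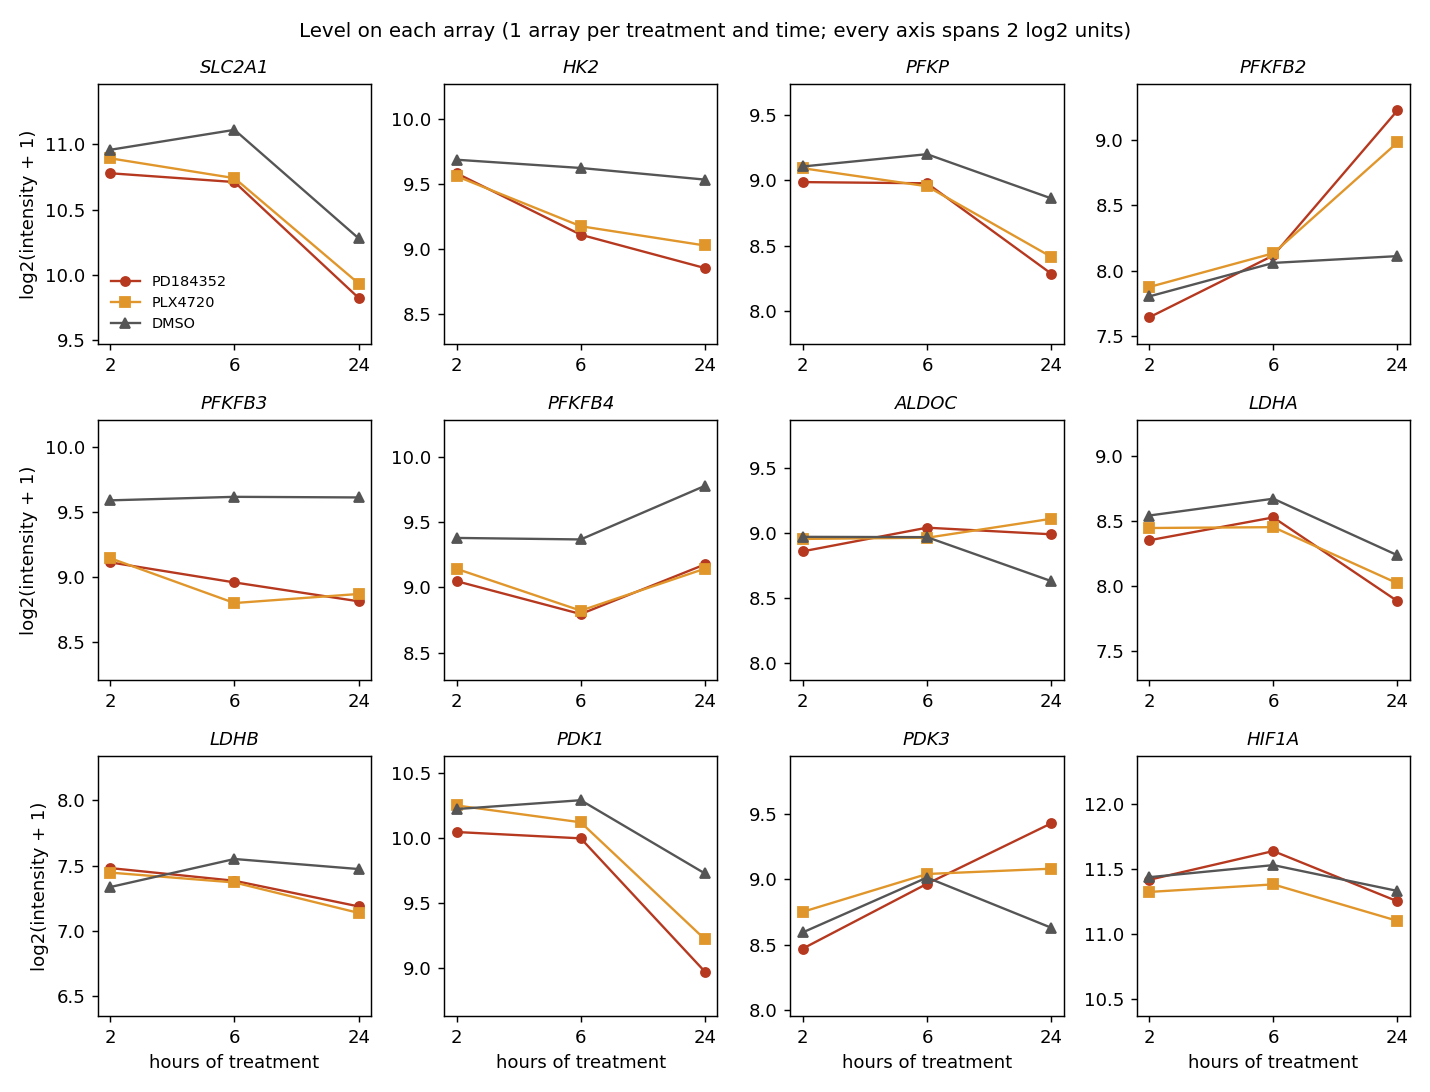
Level of the 11 members called at 24 h and of HIF1A as log2(intensity + 1) on the vertical axes, against hours of treatment on the horizontal axes, for PD184352 (circles), PLX4720 (squares) and DMSO (triangles). Each point is 1 array with no replicate, and every vertical axis spans 2 log2 units. PFKFB3 stays below DMSO throughout, PFKFB2 leaves DMSO at 24 h, and SLC2A1, PFKP, LDHA and PDK1 are lower at 24 h than at 6 h in DMSO as well.

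Of the enzymes that turn hexose phosphates into triose phosphates, 1 fell, 1 rose and 5 did not pass at 24 h. That is 14.3% each way, near the shares of all genes (19.2% lower and 12.5% higher). PFKP, the platelet-type phosphofructokinase, had an intensity of 507, 503 and 311 with PD184352 and 545, 495 and 340.1 with PLX4720, against 551, 588 and 465 with DMSO. Both inhibitor arrays at 24 h were the lowest of the 9. PFKP fell by 0.51 at 24 h (SE 0.09, adjusted p = 0.00206) and was at −0.23 at 6 h (adjusted p = 0.255), and with the other 2 DMSO arrays as control the 24 h change was −0.81 (adjusted p = 1.75e-05). The liver and muscle isoforms PFKL and PFKM were at 0.0038 (SE 0.10) and 0.16 (SE 0.10), and neither passed, but with the other 2 DMSO arrays as control PFKM was at 0.23 (adjusted p = 0.0348). A row that names SENP1 first and its neighbour PFKM second was at −0.56 at 24 h, without a test. It may report SENP1 and need not bear on PFKM. ALDOC, the brain-type aldolase, had an intensity of 464, 526 and 508 with PD184352 and 495, 499 and 552 with PLX4720, against 501, 500.1 and 396 with DMSO. It rose by 0.42 at 24 h (SE 0.09, adjusted p = 0.00672), but the DMSO array at 24 h was the lowest of the 9, and with the other 2 DMSO arrays as control the change was 0.08 (adjusted p = 0.450). ALDOA, the main aldolase, was at −0.05 (SE 0.09), and at −0.26 (adjusted p = 0.0145) with those DMSO arrays as control. GPI, the isomerase after hexokinase, was at 0.05 (SE 0.09).

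The brighter row with the symbol of TPI1, triose phosphate isomerase, was at −0.44 at 24 h (SE 0.22, adjusted p = 0.160). It did not pass, but without the PD184352 24 h array it was at −0.71. That row read, as log2 levels, 8.60, 8.73 and 8.62 with PD184352 and 8.67, 8.24 and 8.07 with PLX4720, against 8.55, 8.80 and 8.79 with DMSO. Only the PLX4720 arrays at 6 h and 24 h stood below the rest. A second, dimmer row with the TPI1 symbol did not show this: its change at 24 h was −0.04, and the PLX4720 array at 24 h read 7.30, against 7.15 with PD184352. By number this second row lies between the rows of GAPDH and ENO2, genes of chromosome 12 like TPI1. The brighter row lies near that of PGM1, a gene of chromosome 1, so it may report a copy and not TPI1 itself. Near-identical processed copies of TPI1, GAPDH, PGK1, PKM, LDHA, LDHB, ALDOA and PGAM1 exist in the genome as background, so signal in these rows may be shared.

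No tested gene of lower glycolysis was called at any time (0 of 5 by limma), where 19.2% of all genes were lower and 12.5% higher at 24 h. Below an unadjusted p of 0.05 were GAPDH at 2 h and 24 h, PKM at 2 h and ENO2 at 6 h. GAPDH was at −0.21 (SE 0.08, adjusted p = 0.0829), PKM, the pyruvate kinase of most tissues, at −0.08 (SE 0.09), ENO1 at −0.0046 (SE 0.09), ENO2, the neuronal enolase, at 0.19 (SE 0.09) and PGK1 at 0.02 (SE 0.08), all at 24 h. Each of these small changes was set against a DMSO array at 24 h that was itself low for 4 of the 5 genes, as described below. From 6 h to 24 h the DMSO level moved by −0.42 for GAPDH, −0.49 for PKM, −0.48 for ENO1 and −0.52 for ENO2. The values that follow mix inhibitor with time. With the other 2 DMSO arrays as control, GAPDH was at −0.65 (adjusted p = 3.46e-05), PKM at −0.55 (adjusted p = 0.000223), ENO1 at −0.46 (adjusted p = 0.000541) and ENO2 at −0.36 (adjusted p = 0.00228), while PGK1 was at −0.06 (adjusted p = 0.538). The only row that names PGAM1, the mutase, alone was left out as dim. By number it lies between the rows of LDHA (chromosome 11) and GAPDH (chromosome 12), while PGAM1 is on chromosome 10. That row may thus report a copy, and PGAM1 itself is not shown to be dim. Of 2 brighter rows shared with its copy PGAM4, the one that names PGAM1 first was at −0.13 at 24 h. The one that names PGAM4 first was at −0.86. Neither was tested, and they need not report the same gene.

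The lactate carrier genes SLC16A1 and SLC16A3 had no row that named 1 gene and were not analysed here. Both tested lactate dehydrogenase genes fell at 24 h, by less than HK2 or PFKFB3, where 19.2% of all genes were lower. LDHA, whose enzyme favours lactate formation, had an intensity of 326, 368 and 236 with PD184352 and 348, 349.7 and 259 with PLX4720, against 372, 407 and 301 with DMSO. It fell by 0.28 (SE 0.10, adjusted p = 0.0457), close to the threshold, and the call was lost under 7 of 17 alternatives. With the other 2 DMSO arrays as control LDHA was at −0.65 (adjusted p = 8.21e-05). LDHB, whose enzyme favours pyruvate formation, had an intensity of 178, 166 and 145 with PD184352 and 173, 164 and 139.7 with PLX4720, against 160.5, 186 and 177 with DMSO. It fell by 0.31 at 24 h (SE 0.08, adjusted p = 0.0163) and was not called without the PLX4720 24 h array (−0.29, adjusted p = 0.0737).

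The kinases of pyruvate dehydrogenase changed in opposite directions at 24 h. PDK1, a known hypoxia-induced kinase, had an intensity of 1056, 1021 and 502 with PD184352 and 1216, 1112 and 596 with PLX4720, against 1193, 1250.5 and 846 with DMSO. The 24 h array was the lowest of each treatment, and lowest of all with the inhibitors. PDK1 fell by 0.63 at 24 h (SE 0.12, adjusted p = 0.00330), and with the other 2 DMSO arrays as control the change was −1.16 (adjusted p = 1.02e-05). PDK3 had an intensity of 353, 499 and 689 with PD184352 and 429.9, 526 and 541 with PLX4720, against 385, 516 and 395 with DMSO. It rose by 0.63 at 24 h (SE 0.15, adjusted p = 0.00888). The DMSO arrays at 2 h, 6 h and 24 h spanned 0.42 on the log2 scale for PDK3, and the array with PLX4720 at 24 h was close to the DMSO array at 6 h. A second PDK3 row was at 0.24 at 24 h. PDHA1 and PDHB, subunits of pyruvate dehydrogenase itself, were at 0.10 (SE 0.09) and 0.23 (SE 0.09, adjusted p = 0.0933), and neither passed. Among the further pyruvate genes counted below, other parts of the same complex are named after their values were seen. PDHX (−0.44, SE 0.09) and DLAT (−0.35, SE 0.10) fell at 24 h, and DLD (−0.05) did not pass. With the other 2 DMSO arrays as control PDHB was at 0.45 (adjusted p = 0.000805). PDK2 had no row of its own. Of 2 rows shared with SAMD14, the one that names PDK2 first was at 0.67 at 24 h and the one that names SAMD14 first at 0.01, without a test. These rows need not report the same gene.

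In the pentose phosphate and glycogen branch, 0 of 3 tested members were called at any time by limma, and 0 were below an unadjusted p of 0.05. Of all genes 19.2% were lower and 12.5% higher at 24 h. PGD, which makes ribulose phosphate and NADPH, was at 0.07 at 24 h (SE 0.09), TKT, the transketolase, at 0.04 (SE 0.09) and PGM1, which links glucose phosphate to glycogen, at 0.15 (SE 0.09). TALDO1, the transaldolase, had a row shared with INTS8 that was at −0.04, without a test. HIF1A, the oxygen-regulated subunit of hypoxia-inducible factor 1, is controlled mainly through the stability of its protein, which arrays do not measure. Its log2 level was 11.41, 11.64 and 11.25 with PD184352 and 11.32, 11.38 and 11.10 with PLX4720, against 11.43, 11.53 and 11.33 with DMSO. It was at −0.15 at 24 h (SE 0.12, adjusted p = 0.386), and at −0.31 (adjusted p = 0.0257) with the other 2 DMSO arrays as control.

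**Figure D2:**
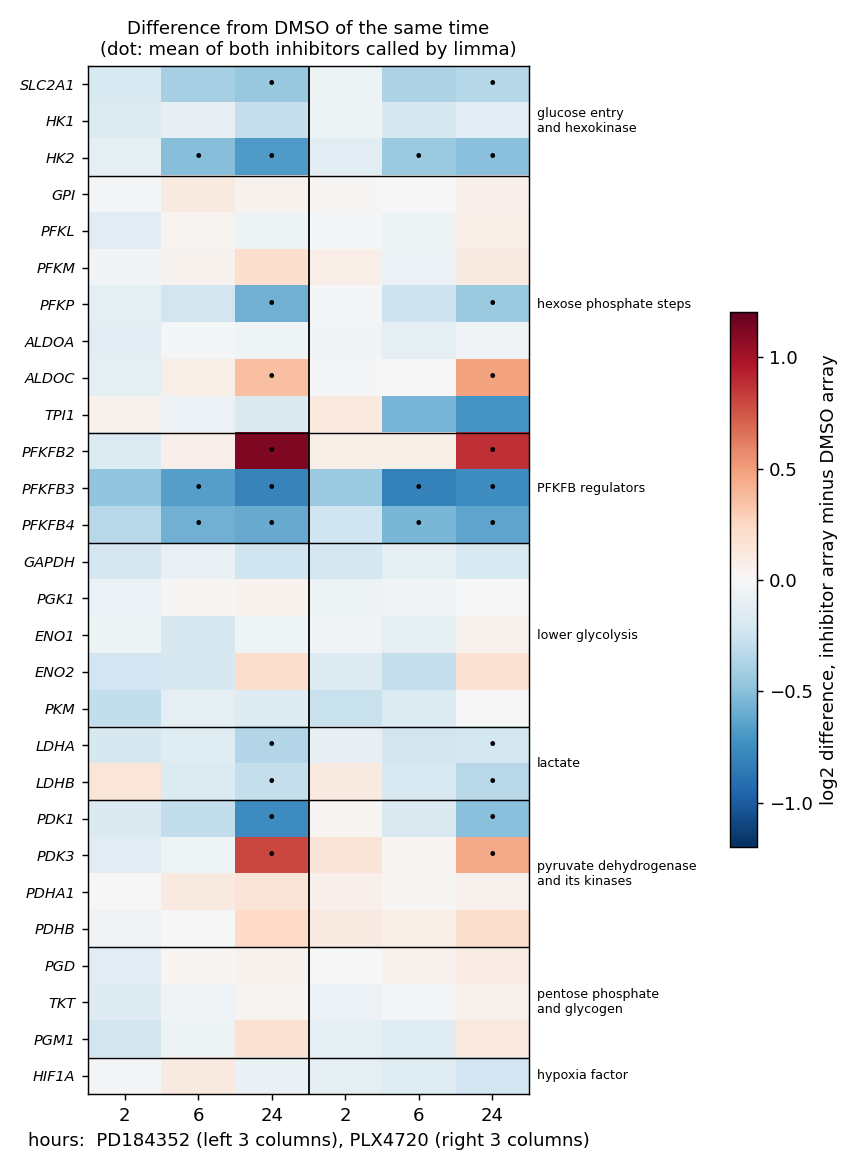
Colour gives the log2 difference between each inhibitor array and its time-matched DMSO array (blue lower, red higher) for the 28 tested members, grouped by role, with PD184352 at 2, 6 and 24 h in the left columns and PLX4720 in the right ones. Dots mark members whose mean over both inhibitors was called by limma at that time. Both compounds share each DMSO array. The called members lie in glucose entry, the PFKFB group, the lactate genes and the PDK kinases, with PFKP and ALDOC between, and none in lower glycolysis.

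Over the whole set, 8 of the 28 tested members were lower and 3 higher at 24 h, which is 28.6% and 10.7%, where 19.2% of all 12785 genes were lower and 12.5% higher. The share of higher members was near that of all genes. The median change of the members at 24 h was −0.03, against −0.01 for all genes. At 6 h, 3 of 28 were lower (10.7%) and 0 higher, where 2.74% of all genes were lower and 0.548% higher. At an unadjusted p below 0.05, 6 members were lower and 0 higher at 6 h, against 1564 lower and 419 higher of all 12785 genes. At 2 h limma called 0 of 28 in either direction, where 0.0704% of all genes were lower and 0.0156% higher. Below that unadjusted p, 4 members were lower and 0 higher at 2 h, against 682 lower and 266 higher of all 12785 genes. With quantile normalization 8 members were lower and 7 higher at 24 h, against 8 and 3 without it. Over all genes 17.7% were then lower and 16.4% higher. The count of lower members at 24 h was 15 with the 2 h and 6 h DMSO arrays as control in place of the 24 h one, where 25% of all genes were lower. That count mixes inhibitor with time.

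Several members differed between 6 h and 24 h in every treatment, DMSO included. Between 24 h and 6 h, on single arrays and without a test, 8 of 28 members were lower by over 1.25-fold with PD184352, 7 with PLX4720 and 10 with DMSO, a threshold chosen after the values were seen. The background of all genes tested was 16% with PD184352, 11.4% with PLX4720 and 3.43% with DMSO. Higher by over 1.25-fold were 4 members with PD184352 (background 11%), 2 with PLX4720 (10.8%) and 1 with DMSO (1.71%). The same 7 genes were lower in all 3 treatments: SLC2A1, PFKP, GAPDH, ENO1, PKM, LDHA and PDK1. SLC2A1 was at −0.89 with PD184352 and −0.81 with PLX4720, against −0.83 with DMSO. The SLC2A1 shift was thus of like size with and without inhibitor. PDK1 was at −1.02 with PD184352 and −0.90 with PLX4720, against −0.56 with DMSO. LDHA was at −0.64 with PD184352 and −0.43 with PLX4720, against −0.43 with DMSO. GAPDH was at −0.57 with PD184352 and −0.48 with PLX4720, against −0.42 with DMSO. These genes act at different steps, and each was lower at 24 h in cells that had received no inhibitor. ENO2 was at −0.11 with PD184352 and −0.06 with PLX4720, against −0.52 with DMSO. PFKFB4 was higher at 24 h in all 3, at 0.38 with PD184352 and 0.32 with PLX4720, against 0.41 with DMSO. Between 6 h and 2 h the DMSO arrays differed less: the members ranged from −0.07 (ENO2) to 0.42 (PDK3). ALDOC, ENO2 and PDK3 were lower by over 1.25-fold with DMSO only. For them, with 1 array per time, a shift of the DMSO array at 24 h alone and a change of the cells with time cannot be told apart. For the 7 genes lower in all 3 treatments, the 24 h arrays of both inhibitors were lower as well, and the cause was not tested. 

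**Figure D3:**
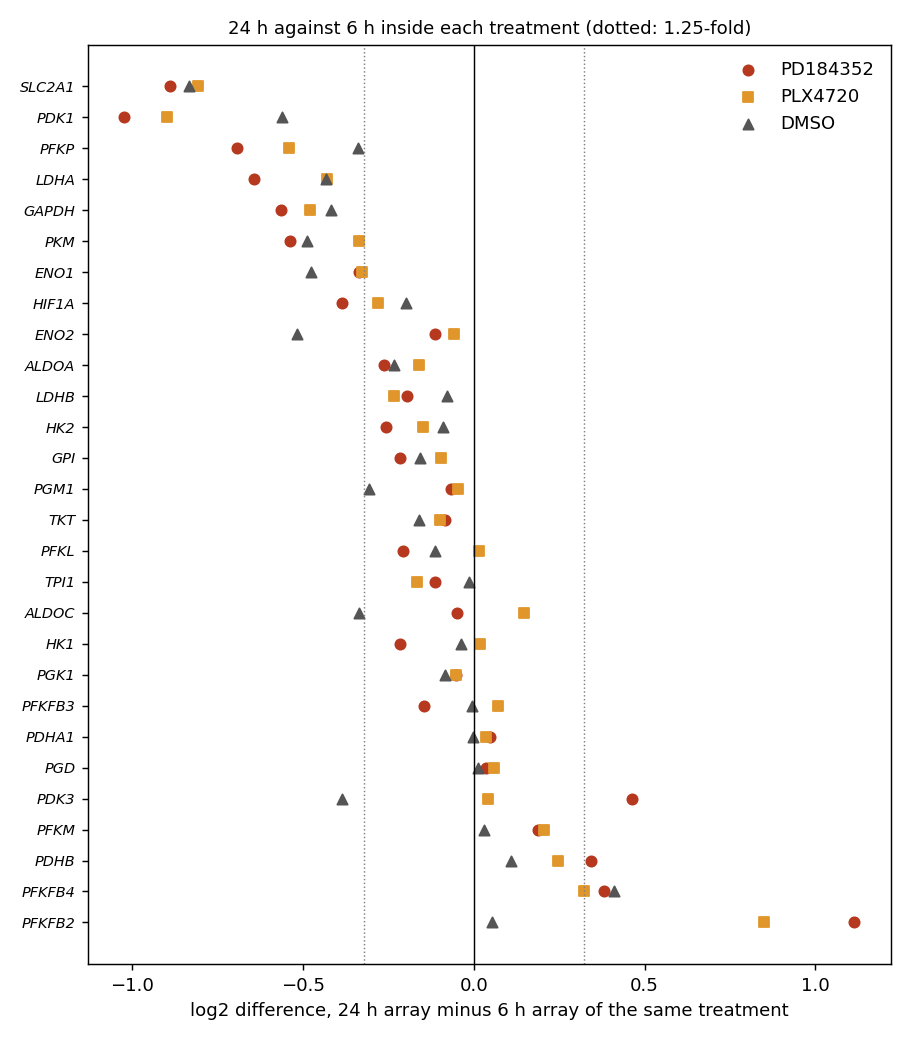
Log2 difference of the 24 h array from the 6 h array of the same treatment on the horizontal axis for the 28 tested members, ordered by the mean of the 3 treatments, with dotted lines at 1.25-fold. Each point is a difference of 2 single arrays, for PD184352 (circles), PLX4720 (squares) and DMSO (triangles). SLC2A1 lies near −0.8 to −0.9 in all 3 treatments, while PFKFB2 is at 1.11 and 0.85 with the inhibitors, against 0.05 with DMSO.

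PD184352 at 1 µM and PLX4720 at 0.4 µM were compared over the 3 times on the 6 inhibitor arrays, with time as a block. limma called 0 of 28 members and 0 of 12785 genes (0% of all genes), with 3 members and 556 genes at an unadjusted p below 0.05. The 3 members were TPI1 (0.32, PD184352 minus PLX4720, 95% interval 0.10 to 0.54), PDK1 (−0.19, interval −0.33 to −0.05) and HIF1A (0.17, interval 0.02 to 0.31), with adjusted p-values of 0.885, 0.885 and 1. Leaving out the arrays of 1 time moved the TPI1 difference to 0.52 without 2 h, 0.24 without 6 h and 0.21 without 24 h. The TPI1 difference was 0.14 (adjusted p = 1) with the mean of its 2 rows, and with the lowest 50% of genes left out it was called (adjusted p = 0.0336). For 27 of 28 members the 95% interval lay within 0.5 of 0 on the log2 scale, TPI1 being the exception. Its interval is that of the brighter row, which may report a copy and not TPI1 itself, as described above. At 24 h the change from the shared DMSO array of HK2 was −0.68 with PD184352 and −0.51 with PLX4720. That of PFKFB3 was −0.80 with PD184352 and −0.74 with PLX4720, and that of PFKFB4 −0.60 with PD184352 and −0.64 with PLX4720. PFKFB2 was at 1.12 with PD184352 and 0.87 with PLX4720. PDK1 was at −0.75 with PD184352 and −0.51 with PLX4720. PDK3 was at 0.80 with PD184352, above its 0.45 with PLX4720. Over the 28 members the difference from the shared DMSO array had the same sign with both compounds in 21 at 2 h, 21 at 6 h and 25 at 24 h, a tally that the shared array itself favours. The doses differ and were 1 per compound, so these values do not compare potencies.

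**Figure D4:**
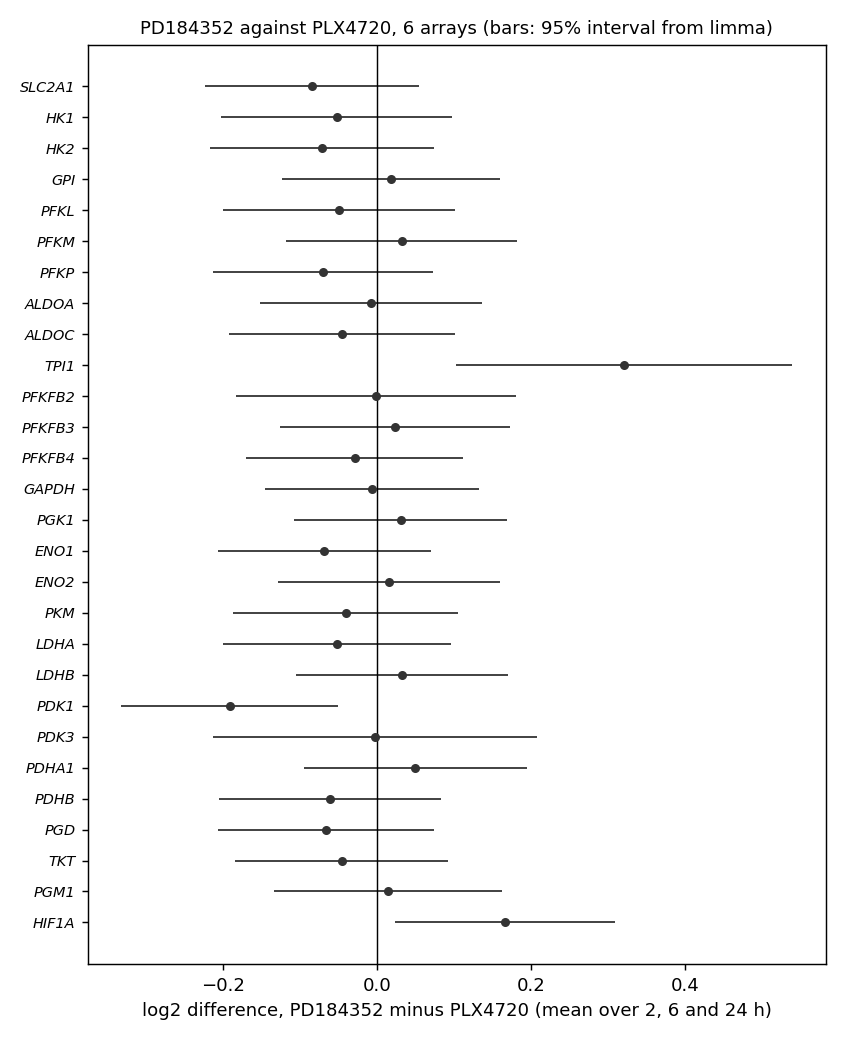
Difference between the compounds, PD184352 minus PLX4720, as the mean over 2, 6 and 24 h on the log2 scale (horizontal axis) for the 28 tested members. Points are limma estimates from 6 arrays with time as a block, and bars are 95% intervals. The intervals of TPI1, HIF1A and PDK1 leave 0, and none of the 28 passed the adjustment.

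Genes next to the members in the same pathways were counted from lists drawn up beside the member list, and their shares stand against 19.2% of all genes lower and 12.5% higher at 24 h. Of 14 tested further genes of glycolysis and glucose entry, 3 rose at 24 h (21.4%) and the others did not pass. These were the hexokinase-domain gene HKDC1 at 0.51 (SE 0.09), the muscle mutase PGAM2 at 0.29 (SE 0.09) and the transporter SLC2A10 at 0.28 (SE 0.09). Of 15 further lactate and pyruvate genes, 6 fell (40%) and 1 rose (6.67%). The largest fall was in PDK4, a starvation-induced kinase of pyruvate dehydrogenase, at −0.95 (SE 0.10), followed by the pyruvate and lactate carrier SLC16A7 at −0.53 (SE 0.14) and the pyruvate dehydrogenase phosphatase PDP1 at −0.48 (SE 0.16). The rise was in SLC16A4, a member of the same carrier family, at 1.58 (SE 0.15). PDK4 was also lower at 6 h (−0.80, adjusted p = 0.00237). Of the PDK genes tested, PDK1 and PDK4 thus fell and PDK3 rose at 24 h.

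Of 16 further genes of the pentose phosphate, hexosamine and glycogen branches, 9 fell (56.2%) and 3 rose (18.8%) at 24 h, with a median change of −0.36. GNPNAT1 and UAP1, enzymes of the hexosamine pathway, were at −1.10 (SE 0.09) and −0.83 (SE 0.13), and UGP2, which makes UDP-glucose, was at −1.10 (SE 0.14). PGM2L1, a glucose bisphosphate synthase, rose by 0.99 (SE 0.11). UAP1 had passed at 6 h (−0.71, adjusted p = 0.0135). The pentose phosphate enzymes RPIA (−0.75, SE 0.11, adjusted p = 0.000650) and RPE (−0.34, SE 0.09, adjusted p = 0.0122), which interconvert pentose phosphates, also fell at 24 h and are named after their values were seen. The pentose phosphate genes of this list did not all fall. H6PD rose by 0.49 (SE 0.10, limma adjusted p = 0.00320), and PGLS (0.12) and TKTL2 (−0.18) did not pass.

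Of 19 tested genes of the hypoxia pathway and its non-glycolytic targets, 6 rose (31.6%) and 4 fell (21.1%) at 24 h, with a median of 0.01. The share that fell was near that of all genes. EPAS1, which encodes the second hypoxia-inducible factor, rose by 1.39 (SE 0.10) and the mitophagy receptor BNIP3L by 0.66 (SE 0.09), while the angiogenic factor VEGFA was at −0.97 (SE 0.09) and the vasodilator peptide gene ADM at −0.89 (SE 0.09). At 6 h VEGFA (−0.70, adjusted p = 0.00233) and ADM (−0.68, adjusted p = 0.00233) were the 2 genes of this list that were lower. Of 13 transcription factors and sensors of glucose metabolism, 3 fell (23.1%) and 2 rose (15.4%) at 24 h, both near the shares of all genes. PPARGC1A, the coactivator of mitochondrial biogenesis, rose by 1.51 (SE 0.19) and TXNIP, a glucose-sensing arrestin that limits glucose uptake, by 1.01 (SE 0.11). The paralog PPARGC1B fell by 1.09 (SE 0.13) and MYC by 0.86 (SE 0.10).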

How the data were processed

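The authors deposited array intensity values on a linear scale for 9 samples. The tools listed in the submitters' processing notes are RMA, limma and R 2.8.0, with a genome build not given in the sources used here. Arrays give no counting depth, and their number limits the precision.

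The values were turned into log2(value + 1) without further normalization. A row was used where the platform annotation gave it 1 symbol (19380 of 35446). Of the 1794 genes with several rows the brightest row was kept, and the 25% of genes with the lowest means were left out. limma 3.58.1 (R 4.3.3) was fitted to 12785 genes with Benjamini-Hochberg adjustment. One fit had a mean for inhibitor and for DMSO at each time (3 residual degrees of freedom), and the other took the 6 inhibitor arrays with compound and time (2 residual degrees of freedom). Both were tested on simulated data. Members, lists, tests and the rule for named genes (every member, and up to 4 called genes of each other list by size) were chosen with earlier results of these data known. Up to 17 alternatives were tried for the first fit.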

Additional observations from a re-analysis of the deposited data

Results flagged for a closer look

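The change of PFKFB2 with either inhibitor differed between times by limma's F-test (adjusted p = 0.00500). The change at 24 h minus that at 2 h was 1.04 (SE 0.17), and both compounds showed it, with 24 h differences from DMSO of 1.12 for PD184352 and 0.87 for PLX4720. PFKFB2 kept its call at 24 h under 17 of 17 alternatives, with values from 0.87 to 1.18.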

How the results depend on the processing

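The 24 h calls of SLC2A1, HK2, PFKP, PFKFB2, PFKFB3, PFKFB4, PDK1 and PDK3 held under 17 of 17 alternatives. LDHA lost its call under 7 and ALDOC under 2. LDHB lost it under 1 and had no value under 2 more (the 50% filter and the mean of all rows of a gene). At 24 h quantile normalization gave 7 higher members, adding PFKM, ENO2, PDHB and PGM1. The number of members whose change differed between times, 1 as reported, was 4 with the lowest 50% of genes left out, 5 after quantile normalization, 2 with the mean of a gene's rows, with rows of several symbols or with a trended robust prior, and 11 with the mean of the 3 DMSO arrays as control. Between the compounds, 1 member (TPI1, adjusted p = 0.0336) was called with the 50% filter, and 1 member was lower at 2 h with the mean of the 3 DMSO arrays. Over all genes, 253 were called at 6 h without a filter, against 420 as reported. At 2 h, with 11 reported, it was 1 without a filter, 35 with the 50% filter, 23 with pseudocount 16, 0 after quantile normalization, 21 with the trended prior and 31 with the mean of the DMSO arrays. The cause of these shifts was not tested.

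Leaving out 1 array at a time gave 7 to 15 lower members at 24 h, 0 to 2 lower members at 2 h and 1 to 13 members whose change differed between times. Over all genes it gave 205 to 886 calls at 6 h and 0 to 1096 at 2 h. The highest of these came from leaving out the DMSO array of 24 h for the members at 24 h and between times, and that of the same time for the rest. There the other 2 DMSO arrays stood in as control, which mixes inhibitor with time. Members near 0 at 24 h reversed: ENO1 to 0.087 after quantile normalization, PKM to 0.074 and PGD to −0.016 with the mean of a gene's rows. With the mean of the DMSO arrays GPI was at −0.042, PFKL at −0.091, PGK1 at −0.032, ENO2 at −0.18, TKT at −0.079 and PGM1 at −0.034. Over the arrays left out, GPI ranged from −0.089 to 0.061, PFKL from −0.14 to 0.068, PGK1 from −0.059 to 0.046, ENO1 from −0.46 to 0.044, ENO2 from −0.36 to 0.21, TKT from −0.14 to 0.048 and PGM1 from −0.13 to 0.18. The lowest of each came without the DMSO array of 24 h. The precision is limited by 1 array per group.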
